A study of Mus musculus with 6 samples.

Results

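RNA of 10 genes of the ATF4-CHOP axis was followed in cultured mouse fibroblasts, the established embryonic line NIH-3T3, after guide RNAs against pyruvate carboxylase. The genes were chosen by name, as the gene of the GCN2 kinase (Eif2ak4), the factors Atf4, Atf5, Ddit3 and Atf3, the dimer partners Cebpb and Cebpg, the feedback genes Trib3 and Ppp1r15a, and the effector Chac1. All 10 were found among the 16540 genes of the table. Each passed the filter on low values, with at least 232 recovered reads in every library.

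The cells carried Cas9 with PC sg2 (n = 2 libraries), PC sg5 (n = 2) or the control guide R26 sg1 (n = 2), which is named after the Rosa26 locus. The PC guides are named after pyruvate carboxylase, the mitochondrial enzyme that makes oxaloacetate out of pyruvate, encoded in the mouse by Pcx. All groups share lentiviral Cas9, selection with 2 ug/mL puromycin and 48 h at 0.2 mM glutamine with dialyzed serum, and each is 1 uncloned pool that may mix edited and unedited cells. The strain is NIH/Swiss. Per its title, the series is about this enzyme in collagen production by fibroblasts. Whether the 2 libraries of each guide are separate cultures is not stated, so the spread behind every p-value may be technical. Bulk RNA cannot tell fewer responding cells and less RNA per cell apart.

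The axis is the transcriptional part of the integrated stress response. Kinases such as GCN2, which senses uncharged tRNA, phosphorylate the translation factor eIF2 alpha. General translation then slows while ATF4 mRNA is translated more, so ATF4 RNA and protein need not move together. ATF4 binds DNA as a dimer with C/EBP proteins at composite elements and induces amino acid uptake and synthesis genes, and CHOP, the product of Ddit3, joins it under lasting stress.

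Sequencing depth ran between 22895172 recovered reads in PC sg5 replicate 2 and 71710049 in control replicate 2. Pcx had 316 and 375 normalised counts with PC sg2, 713 and 716 with PC sg5, and 2914 and 3015 in the controls. All 8 fibroblast markers checked (Col1a1, Col1a2, Col3a1, Vim, Pdgfra, Pdgfrb, Thy1 and Fn1) were measured, and all 8 fell in the PC libraries, with a summed level of 986816 to 1025407 normalised counts there and 1796215 to 1862739 in the controls. Markers of other cell types were low in both. The 5 leukocyte markers measured summed to 639 to 688 in the PC libraries and 1141 to 1252 in the controls, and the remaining lists to 331 to 431 and 561 to 655 for 2 adipocyte markers, 32.4 to 53.0 and 36.3 to 45.5 for 2 endothelial markers, 11.7 to 26.3 and 72.3 to 90.6 for the muscle marker Des, and 8.55 to 19.1 and 57.4 to 58.7 for the epithelial marker Cdh1. The part of these shifts in the results was not tested.

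With PC guides, 9 of the 10 genes rose and Eif2ak4 fell. Atf3, Ddit3, Ppp1r15a, Trib3 and Chac1 rose by more than 2 on the log2 scale. Atf4, Atf5, Cebpb and Cebpg rose by 0.34 to 0.88. All 10 passed the threshold, an adjusted p under 0.05 by limma with Benjamini-Hochberg adjustment over 16526 genes, in each comparison of PC libraries with control. Most of the transcriptome passed it as well: 67.9% of genes for both PC guides together (34.3% higher, 33.6% lower), 64.5% for PC sg2 (32.9% higher, 31.6% lower) and 64.5% for PC sg5 (32.6% higher, 31.8% lower). The count of 10 is therefore read by size. The median log2 fold change was 1.55 over the 10 genes and -0.01 over all genes tested. Of the 10, 5 rose by at least 1, where 6.48% of all genes tested rose past the threshold by that much. The 10 genes were chosen with earlier results of these data known, so this comparison describes them and is no independent test. The comparisons of PC sg2 and of PC sg5 with control use the same control libraries.

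**Figure D1:**
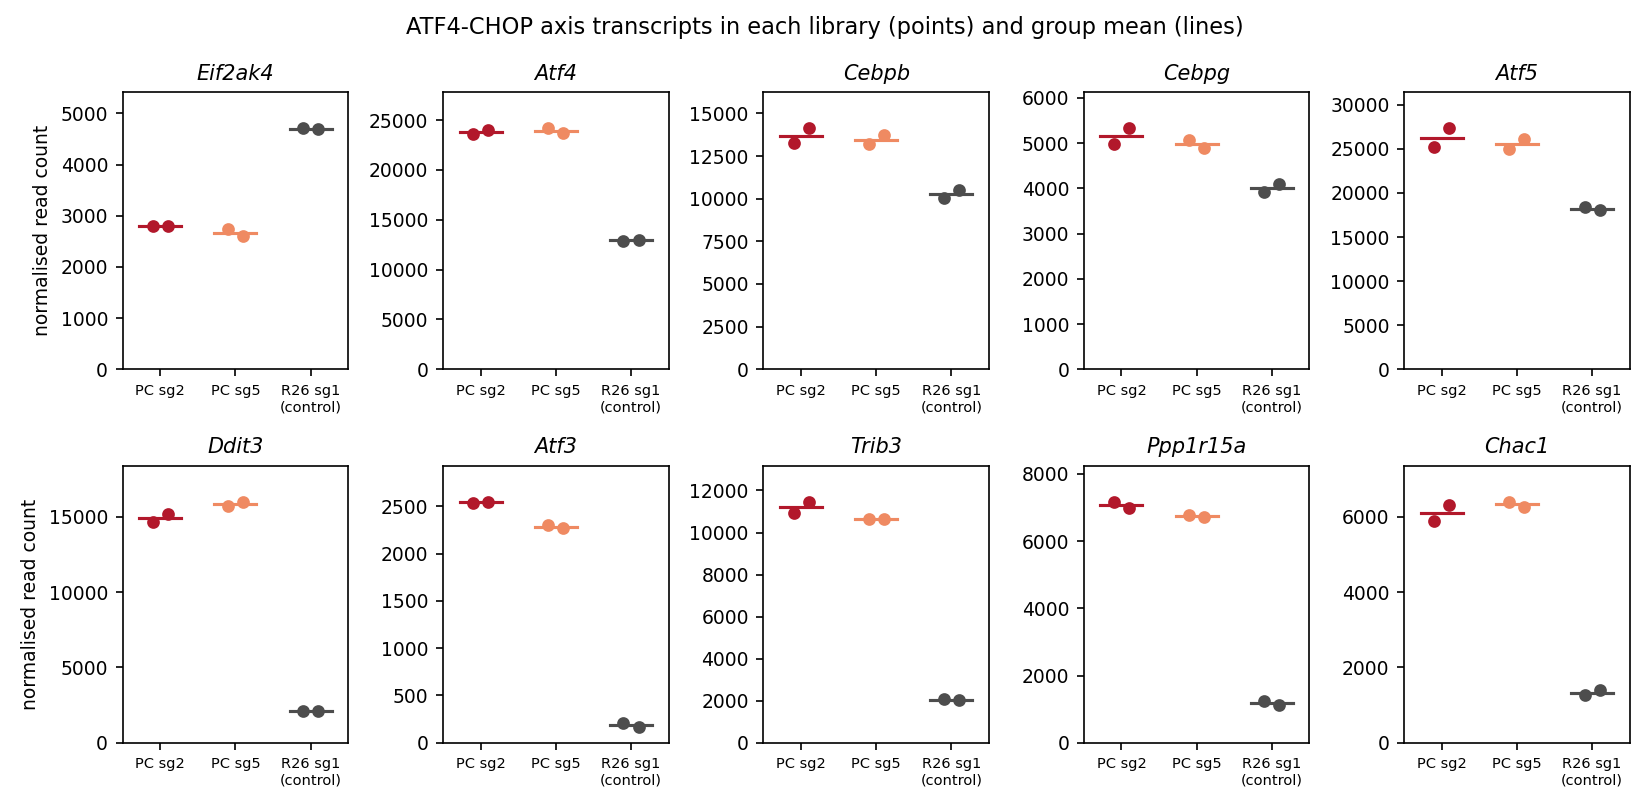
Normalised read count (vertical axis, linear, starting at 0) of each of the 10 genes in the 6 libraries; points are libraries, lines are group means of 2 libraries. In every panel both PC groups lie on the same side of the controls without overlap: below them for Eif2ak4 and above them for the other 9 genes. Among all genes tested, 36.6% lay above both controls in this way and 36.6% below.

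The axis begins with the kinase gene. Eif2ak4, also known as Gcn2 (ENSMUSG00000005102, GRCm38 chr2:118388618-118475234, plus strand), had 2803 and 2794 normalised counts with PC sg2, 2732 and 2601 with PC sg5, and 4712 and 4694 in the controls. It was the only one of the 10 genes that was lower in every PC library, an order that 36.6% of all genes tested also showed. Its log2 fold change for both guides was -0.78 ± 0.04 (SE), with a limma adjusted p of 6.65e-14.

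Of the other 3 eIF2 alpha kinase genes 2 fell and 1 stayed short of the threshold. A list of 7 measured kinases and kinase regulators held 1 gene that rose, 3 that fell and 3 short of the threshold (median log2 fold change -0.05). Among all genes tested 34.3% rose and 33.6% fell. Eif2ak2, the kinase PKR that responds to double-stranded RNA, fell by 0.71, and Eif2ak3, the ER stress kinase PERK, fell by 0.45. Eif2ak1, which encodes the heme-regulated kinase HRI, had -0.05 (adjusted p = 0.302 by limma). Gcn1l1, the ribosome-bound activator of GCN2, rose by 0.34. Oma1, the mitochondrial protease upstream of HRI, fell by 0.30, a call that ended under quantile normalisation (-0.20) and without control replicate 1 (-0.31) or control replicate 2 (-0.28).

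Atf4, the central factor (ENSMUSG00000042406, chr15:80255184-80257541, plus strand), had 23565 and 24001 normalised counts with PC sg2, 24194 and 23724 with PC sg5, and 12911 and 12973 in the controls. The 4 PC libraries lay within 1.03-fold of each other and well above both controls. The log2 fold change was 0.88 ± 0.02 (SE), or 1.84-fold, with a limma adjusted p of 2.14e-18. The libraries measure RNA, and ATF4 protein is not analysed here.

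The C/EBP partners moved less. Cebpb (ENSMUSG00000056501, chr2:167688915-167690418, plus strand), a C/EBP family factor of fibroblast and adipocyte differentiation that dimerises with ATF4, had 13259 and 14132 normalised counts with PC sg2, 13181 and 13725 with PC sg5, and 10038 and 10497 in the controls. Cebpg (ENSMUSG00000056216, chr7:35046422-35056573, minus strand), a C/EBP protein without a classical activation domain that pairs with ATF4 on amino acid response genes, had 4987 and 5330.5 with PC sg2, 5058 and 4895 with PC sg5, and 3924 and 4089 in the controls. As in 36.6% of all genes tested, every PC library lay above both controls for both genes. Their log2 fold changes were 0.40 ± 0.03 and 0.34 ± 0.04 (SE), with limma adjusted p-values of 1.24e-10 and 4.39e-08, the 2 smallest rises of the 10 genes. Exons of Tmem189 on the other strand share 20.7% of the exon bases of Cebpb, and whether counting used the strand is not given in the sources used here.

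Atf5, a factor close to ATF4 in sequence and in its translational control that is linked to the mitochondrial stress response (ENSMUSG00000038539, chr7:44812256-44816658, minus strand), had 25162 and 27351 normalised counts with PC sg2, 25014 and 26071 with PC sg5, and 18382 and 18019 in the controls. All PC libraries were higher than both controls, an order that 36.6% of all genes tested also showed. The log2 fold change was 0.51 ± 0.03 (SE), with a limma adjusted p of 8.86e-13.

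Ddit3, which encodes CHOP (ENSMUSG00000025408, chr10:127290774-127296288, plus strand), had 14667 and 15200.5 normalised counts with PC sg2, 15749.7 and 16009.9 with PC sg5, and 2122 and 2097 in the controls. Every PC library held about 7-fold the control level, with group ratios of 7.08 for PC sg2 and 7.53 for PC sg5. The log2 fold change of 2.87 ± 0.03 (SE) ranked 61 of 16526, with a limma adjusted p of 2.33e-24. Other annotated entries share 10.9% of its exon bases. They are another entry named Ddit3 on the same strand, and Gm4189 and Mars on the other strand.

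Atf3, a bZIP factor induced by ATF4 and by CHOP that mostly represses its targets (ENSMUSG00000026628, chr1:191170296-191218039, minus strand), had 2540.1 and 2549 normalised counts with PC sg2, 2306 and 2266 with PC sg5, and only 209 and 168 in the controls. It was the rarest of the 10 transcripts in the controls, and its PC libraries lay within 1.13-fold of each other. The rise of 3.68 ± 0.07 (SE) was the largest of the 10 and ranked 18 of 16526 (limma adjusted p = 1.77e-20). The control libraries differed by 0.31 on the log2 scale, the widest gap between replicates of any of the 10 genes.

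The feedback genes rose together with the factors. Trib3 (ENSMUSG00000032715, chr2:152337422-152344032, minus strand), a pseudokinase that binds ATF4 and CHOP and dampens them, had 10939.6 and 11468 normalised counts with PC sg2, 10649 and 10645 with PC sg5, and 2062 and 2024 in the controls. Ppp1r15a, or Gadd34 (ENSMUSG00000040435, chr7:45522916-45526268, minus strand), is the stress-induced subunit that directs protein phosphatase 1 to eIF2 alpha and so reverses the kinases' mark. It had 7175 and 6983 with PC sg2, 6789 and 6731 with PC sg5, and 1240.2 and 1138.5 in the controls. PC libraries lay above both controls for either gene, as they did for 36.6% of all genes tested. The log2 fold changes were 2.42 ± 0.03 and 2.54 ± 0.04 (SE), with limma adjusted p-values of 7.29e-23 and 5.72e-22.

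Chac1, an enzyme that breaks down glutathione and is a known target of the ATF4-CHOP pair (ENSMUSG00000027313, chr2:119351229-119354381, plus strand), had 5894 and 6316 normalised counts with PC sg2, 6399 and 6250.1 with PC sg5, and 1275 and 1388 in the controls. All PC libraries exceeded 4-fold of either control. The log2 fold change was 2.22 ± 0.04 (SE), with a limma adjusted p of 8.13e-21.

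**Figure D2:**
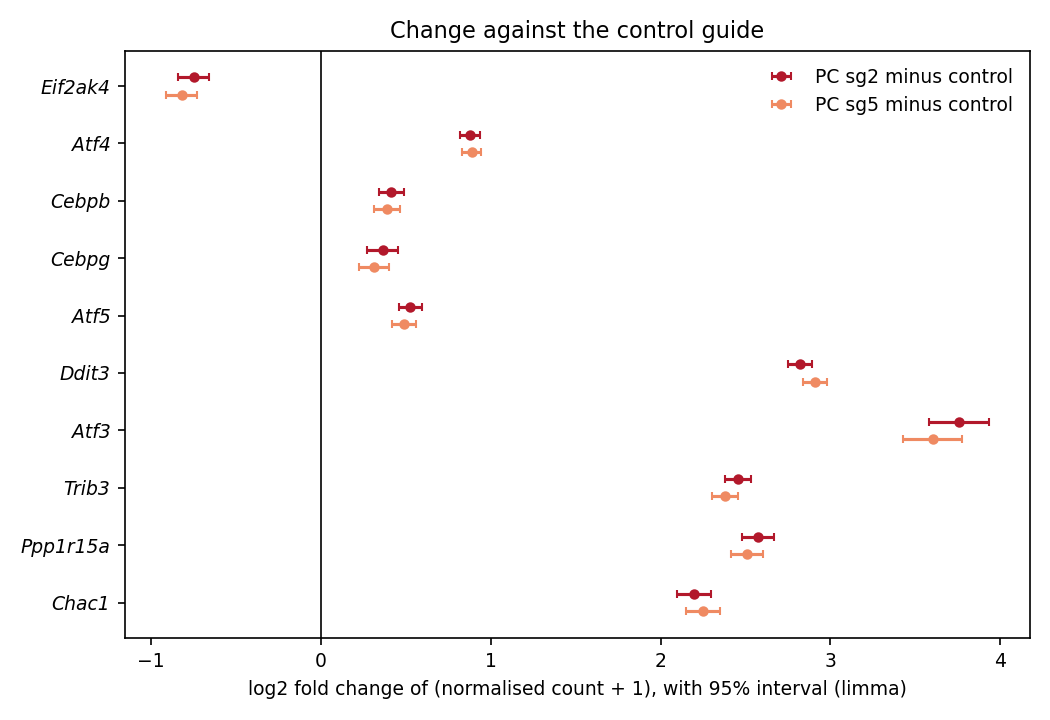
Log2 fold change (horizontal axis) of each gene for PC sg2 and PC sg5, each minus control; points are limma estimates from 2 against 2 libraries and bars are 95% intervals. Eif2ak4 lies at -0.75 and -0.82, the 4 genes Atf4, Cebpb, Cebpg and Atf5 between 0.31 and 0.89, and the other 5 between 2.20 and 3.76.

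The guides left different amounts of Pcx RNA, and the RNA levels of the axis were similar. Enzyme was not measured here, so Pcx RNA does not show how much of it each pool lost. The Pcx mean was 11.7% of the control mean with PC sg2 and 24.1% with PC sg5, and the direct comparison of PC sg5 with PC sg2 gave a log2 fold change of 1.05 ± 0.08 (SE; 95% interval 0.88 to 1.22, limma adjusted p = 6.60e-07). In that comparison 0 of the 10 genes passed by limma, 0 of 10 by edgeR and 0 of 9 by DESeq2, which gave Atf3 no adjusted p (unadjusted p = 0.0407), while 0.242% of all genes tested (40 genes; 0.139% higher, 0.103% lower) passed by limma. At an unadjusted p under 0.05, 2 genes did by DESeq2, Atf3 and Ddit3, and 1 by limma, Ddit3, with 0.09 (95% interval 0.02 to 0.16, adjusted p = 0.337). The widest interval was that of Atf3, -0.33 to 0.02 around -0.15, and Atf4 had the narrowest, -0.05 to 0.07 around 0.01. Intervals of the other genes lay between -0.16 and 0.15. All of these intervals cover the spread of libraries from 1 pool per guide, so they do not bound a difference between the guides. Without limma's intensity trend 0 genes passed in this comparison, so the Pcx call ended there. The count of 40 genes was 14 without PC sg2 replicate 1, 10 without PC sg2 replicate 2, 218 without PC sg5 replicate 1 and 26 without either control replicate.

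**Figure D3:**
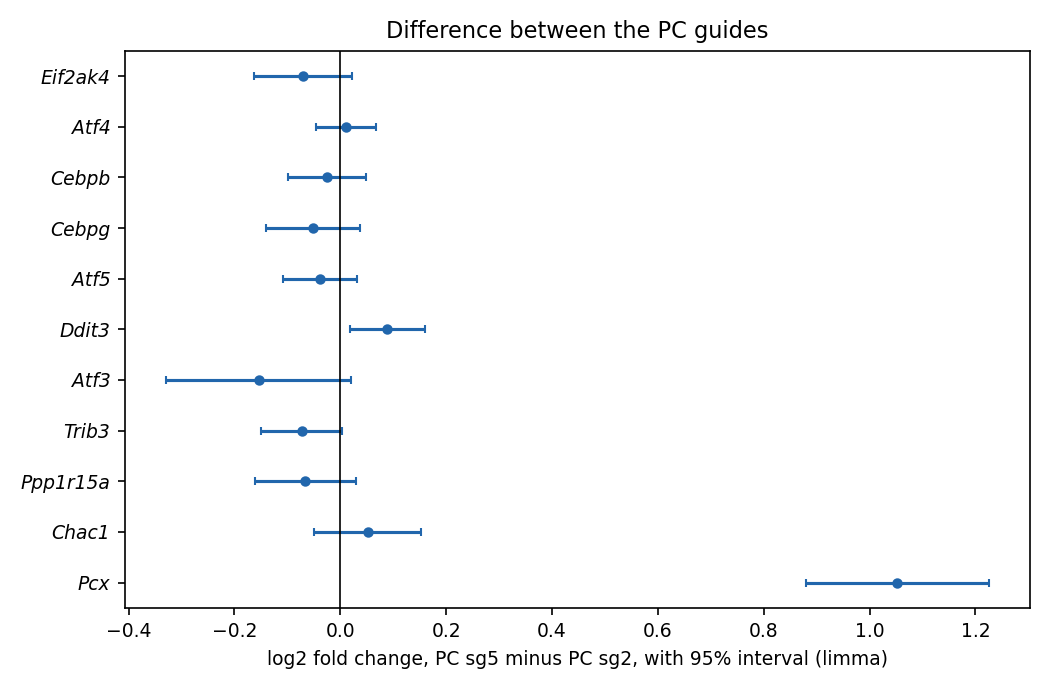
Log2 fold change of PC sg5 minus PC sg2 (horizontal axis) for the 10 genes and for Pcx; points are limma estimates from 2 against 2 libraries and bars are 95% intervals. Pcx lies at 1.05, and the 10 genes lie between -0.15 and 0.09.

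Levels of different genes were compared as RPKM, recovered reads scaled by library depth and by the summed length of all annotated exons, which understates genes with many isoforms. In the PC libraries Atf5 came first with 263 ± 11.03 RPKM (SD, n = 4), followed by Atf4 with 205 ± 2.55. Cebpb with 183 ± 6.21 and Ddit3 with 182 ± 8.07 did not differ beyond the spread of the libraries. That spread does not cover error from exon bases shared with other genes, 20.7% for Cebpb and 10.9% for Ddit3. Trib3 (104), Chac1 (76.8), Ppp1r15a (47.7), Atf3 (22.7), Cebpg (18.2) and Eif2ak4 (7.42) followed. In the controls the order was Atf5 (176), Cebpb (132), Atf4 (106), Ddit3 (23.75), Trib3 (18.5), Chac1 (15.7), Cebpg (13.75), Eif2ak4 (12.2), Ppp1r15a (7.81) and Atf3 (1.69). Ddit3 thus ranked 191 by level among the 16526 genes in PC libraries and 2118 in the controls, and Atf3 ranked 2407 and 10632. Atf5, at 130 and 208, stood among the most abundant transcripts in both.

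**Figure D4:**
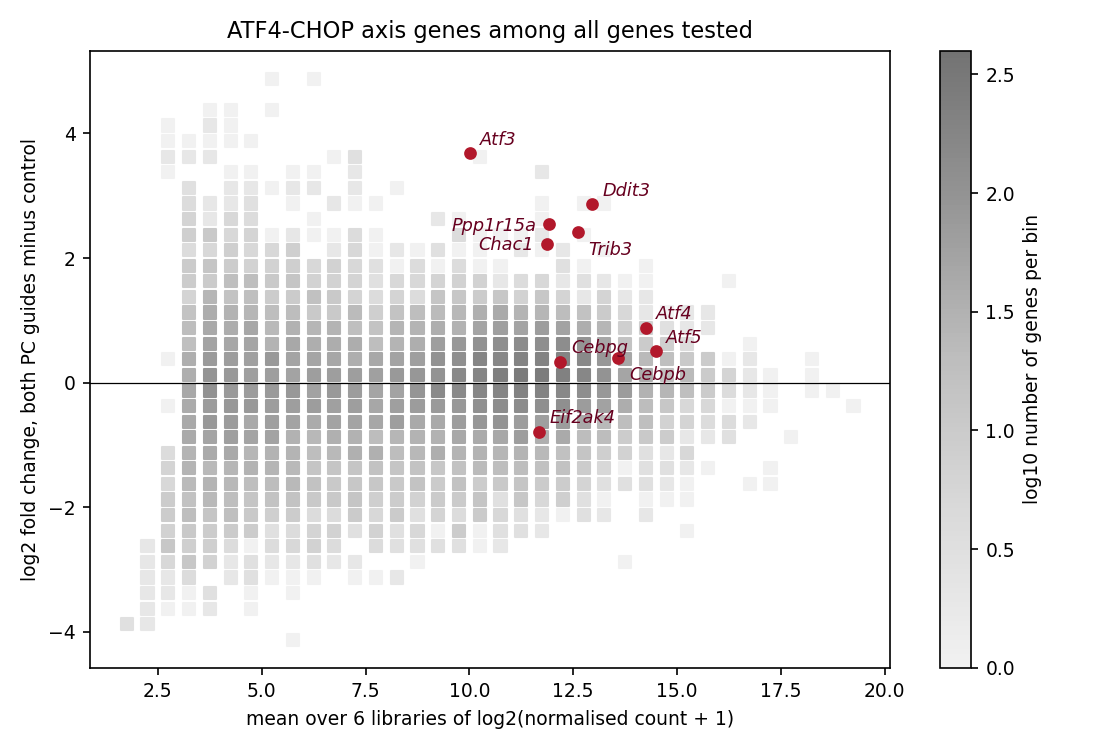
Log2 fold change of both PC guides minus control (vertical axis) against the mean log2 level over 6 libraries (horizontal axis); grey squares are bins of all 16526 genes tested, darker with more genes, and red points are the 10 genes. Atf3 at 3.68 and Ddit3 at 2.87 lie at the upper edge of the cloud for their level, and Eif2ak4 at -0.78 lies in its lower part.

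Start sites of the 10 genes, Eif2ak4 that fell included, were inspected for the elements that ATF4 and its partners are known to bind. RefSeq (build GRCm38.p6) gave promoter windows for all 10 genes, 12 windows in all, and the 250 bases before each start were searched on both strands for 3 motifs. The motifs and the windows shown were chosen after values and sequences had been seen. The composite element was written as TGATGNAA, its wider form as TGNNGCAA, which also covers part of the first, and the cAMP response element as TNACGTCA. The 4 windows below are those of strongly rising genes that hold a match, with matches in capitals, 5′ to 3′ along the gene.
Chac1, chr2:119350992-119351241, plus strand: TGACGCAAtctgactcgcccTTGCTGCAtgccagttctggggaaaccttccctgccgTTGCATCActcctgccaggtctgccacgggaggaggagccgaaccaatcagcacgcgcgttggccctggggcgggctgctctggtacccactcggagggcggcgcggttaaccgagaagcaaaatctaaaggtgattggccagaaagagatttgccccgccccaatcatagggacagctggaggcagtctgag
Atf3, chr1:191183334-191183583, minus strand: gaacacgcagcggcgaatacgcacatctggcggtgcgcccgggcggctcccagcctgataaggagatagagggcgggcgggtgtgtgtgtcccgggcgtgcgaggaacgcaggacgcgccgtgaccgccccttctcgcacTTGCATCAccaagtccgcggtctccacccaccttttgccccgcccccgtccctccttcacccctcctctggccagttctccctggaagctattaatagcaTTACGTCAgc
Trib3, chr2:152344061-152344310, minus strand: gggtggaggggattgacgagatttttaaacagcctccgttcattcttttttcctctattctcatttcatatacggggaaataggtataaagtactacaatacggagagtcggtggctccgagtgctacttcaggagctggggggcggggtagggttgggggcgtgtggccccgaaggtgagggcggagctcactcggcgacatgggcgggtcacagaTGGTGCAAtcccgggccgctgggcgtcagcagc
Ppp1r15a, chr7:45526269-45526518, minus strand: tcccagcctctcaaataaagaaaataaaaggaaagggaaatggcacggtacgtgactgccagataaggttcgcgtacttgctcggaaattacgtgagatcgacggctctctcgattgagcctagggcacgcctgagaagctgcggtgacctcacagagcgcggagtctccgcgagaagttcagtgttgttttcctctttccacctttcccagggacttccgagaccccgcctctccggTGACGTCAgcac

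TGATGNAA was found in 2 of the 10 genes, Chac1 and Atf3, each as TTGCATCA on the opposite strand, and in 3.91% of the 27025 genes with a window. The wider form was found in 4 of the 10, Chac1, Atf3, Trib3 and Atf5, and in 11% of all genes. TNACGTCA was found in 2 of the 10, Atf3 and Ppp1r15a, and in 2.92% of all genes. In Ppp1r15a it was the palindrome TGACGTCA, which ends 5 bases before the RefSeq start, and in Atf3 it ended 3 bases before the RefSeq start. That Atf3 start lies inside the gene span given above, and the bases before the span's own start, at chr1:191218039, were not searched. Windows were found for 31 of the 40 listed amino acid response genes, Mars under its RefSeq name Mars1, and of these 9 (29%) held TGATGNAA and 0 held TNACGTCA. Windows of Eif2ak4, Atf4, Cebpb, Cebpg and Ddit3 held none of the 3 motifs in these letters. The search covered only 250 bases before each start, so it does not show that these genes lack the elements.

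Known ATF4-linked genes of amino acid uptake, synthesis and tRNA charging mostly rose. Of 39 measured effectors 35 rose, 3 fell and 1 stayed short of the threshold, where 34.3% of all genes tested rose and 33.6% fell. The effectors' median log2 fold change was 0.62, below the 10 genes' median of 1.55. Nupr1, a small stress-induced chromatin protein, had 4846 and 5010.5 normalised counts with PC sg2, 5498 and 5055 with PC sg5, and 1009 and 926 in the controls (2.40 ± 0.05, SE). The cationic amino acid transporter gene Slc7a1 rose by 1.47 ± 0.03, the alanyl-tRNA synthetase gene Aars by 1.24 ± 0.02 and the tRNA exportin gene Xpot by 1.21 ± 0.03, and other genes share 15.1% of the exon bases of Aars. The members that fell were Ddit4, an inhibitor of mTORC1 (-0.64), the low density lipoprotein receptor family gene Vldlr (-0.21) and the neutral amino acid transporter gene Slc38a2 (-0.18). These had limma adjusted p-values of at most 1.45e-05.

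The machinery that GCN2 acts on rose as well. All 8 measured subunit genes of eIF2 and of its exchange factor eIF2B rose, with a median of 0.55, where 34.3% of all genes tested rose. Eif2s1, which encodes eIF2 alpha itself, rose by 0.99 ± 0.03 (SE), Eif2s2 by 0.70, Eif2b2 by 0.93 and Eif2b3 by 1.06, and their limma adjusted p-values were at most 9.92e-12. Ppp1r15b, the constitutive counterpart of Ppp1r15a, rose by 0.60 ± 0.03, compared with 2.54 for Ppp1r15a. Of the catalytic phosphatase 1 subunits, Ppp1cb rose by 0.16 and Ppp1cc by 0.10, while Ppp1ca fell by 0.50. In this list of 4 genes the median was 0.13. The call of Ppp1cc ended without the intensity trend (0.10), under quantile normalisation (0.06) and without control replicate 1 (0.09). Overlapping genes share 11.4% to 17.5% of the exon bases of Ppp1r15b, Ppp1ca and Ppp1cb. Of 3 genes that act on ATF4 protein, the acetyltransferase gene Ep300 rose by 0.35, and the ubiquitin ligase adaptor gene Fbxw11 rose by 0.42 while its relative Btrc fell by 0.54 (list median 0.35).

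Of 5 measured CHOP-linked genes, a list that mixes induced and repressed targets, 3 rose and 2 fell (median 0.11). The shares of all genes tested were 34.3% that rose and 33.6% that fell. Ero1l, the ER oxidase known to be induced by CHOP, had 12027 and 11682 normalised counts with PC sg2, 11936 and 11714 with PC sg5, and 4363 and 4173 in the controls (1.47 ± 0.03, SE). Bcl2l11, which encodes the pro-apoptotic protein BIM and is known to be induced by CHOP, fell by 1.04 ± 0.05, and Bcl2, an anti-apoptotic gene that CHOP represses, fell by 0.63 ± 0.05. Bbc3, the PUMA gene, rose by 0.17. The death receptor gene Tnfrsf10b had 0.11 (adjusted p = 0.0297), and its call ended with DESeq2 (0.11), without the intensity trend (0.11), under quantile normalisation (0.09), and without PC sg2 replicate 2 (0.11), PC sg5 replicate 2 (0.09), control replicate 1 (0.10) or control replicate 2 (0.12). The other 4 genes had limma adjusted p-values of at most 0.00437.

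Of 23 genes of the IRE1-XBP1 and ATF6 arms, the parallel arms of the unfolded protein response, 12 rose, 8 fell and 3 stayed short of the threshold (median 0.18), beside 34.3% of all genes tested that rose and 33.6% that fell. By at least 1, 6 of the 23 rose past the threshold. So did 8 of the 39 amino acid response effectors and 6.48% of all genes tested. The chaperone genes Hspa5 and Hyou1 rose by 1.53 ± 0.02 and 1.08 ± 0.03 (SE), and the sensor genes Ern1 and Atf6 by 1.40 ± 0.04 and 1.05 ± 0.03. Sec24d, a COPII coat subunit, fell by 1.26 ± 0.03, and Calr, Syvn1 and Pdia6, which encode calreticulin, a ubiquitin ligase of ER degradation and a disulfide isomerase, fell by 0.57, 0.57 and 0.44. Their limma adjusted p-values were at most 1.23e-09.

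Of 14 measured paralogs of the 10 genes 6 rose, 6 fell and 2 stayed short of the threshold (median 0.04), an even division like that of all genes tested, where 34.3% rose and 33.6% fell. Trib2, a Tribbles pseudokinase like Trib3, had 1573 and 1571 normalised counts with PC sg2, 1559.9 and 1661 with PC sg5, and 5160.0 and 5547 in the controls (-1.75 ± 0.05, SE), opposite to Trib3. The C/EBP genes Cebpd and Cebpa fell by 1.44 ± 0.04 and 1.39 ± 0.12, where Cebpb and Cebpg rose. Atf1, a CREB family factor, rose by 0.41, and Jdp2, a repressor related to ATF3, by 0.38. A list of 38 bZIP factors outside the 10 genes shares members with the paralogs, among them Atf1, Atf6, Cebpa, Cebpd and Jdp2. Its counts are therefore not separate from those above. Of the 38, 19 rose, 17 fell and 2 did not pass (median 0.09). Fosl1 (1.49), Maff (1.02) and Fosl2 (0.68) were higher, and Creb3l1 and Creb3l2 were lower at -0.97 and -0.96. Ccdc85b shares 57.2% of the exon bases of Fosl1 and Spidr 15% of those of Cebpd. Apart from Cebpb, Cebpg and Trib3, whose tests are given above, the genes of this paragraph named as higher or lower had limma adjusted p-values of at most 1.74e-08.

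**Figure D5:**
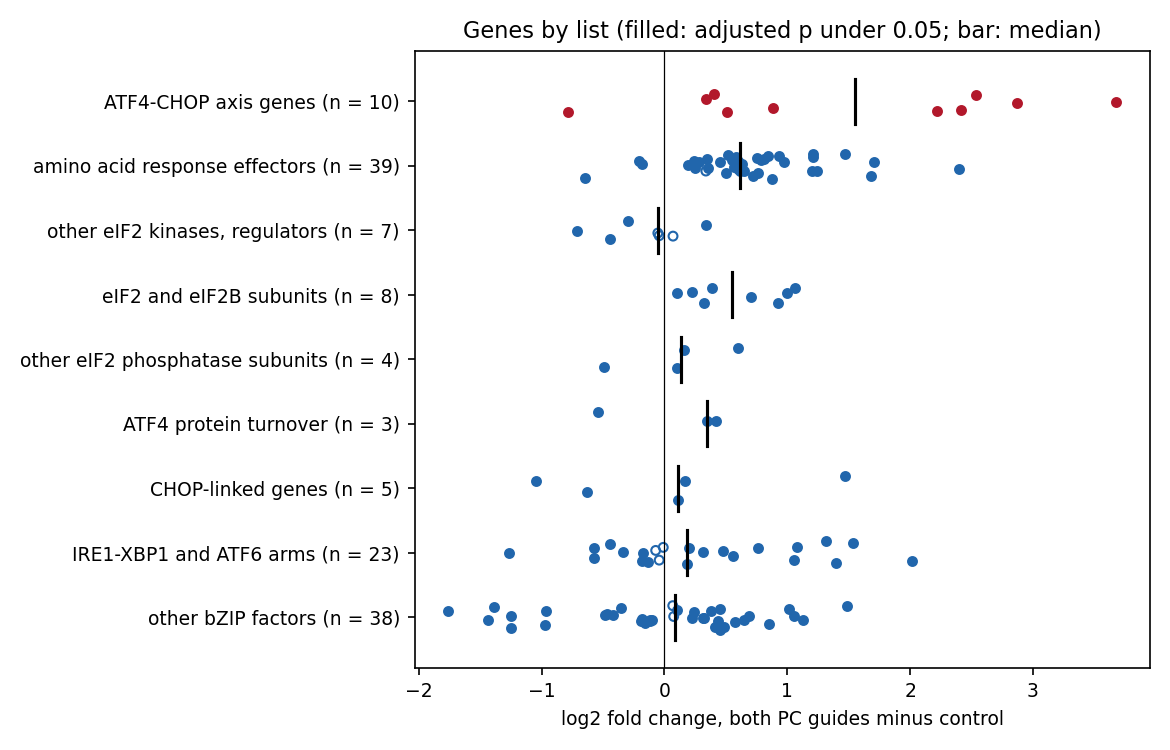
Log2 fold change of both PC guides minus control (horizontal axis) for the 10 genes (red) and for the genes of 8 lists (blue), with 1 point a gene; filled points had a limma adjusted p under 0.05, open points did not, and bars are medians. The median is 1.55 for the 10 genes, 0.62 for amino acid response effectors, 0.55 for eIF2 and eIF2B subunits and between -0.05 and 0.35 for the other 6 lists.

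The genes whose pattern came closest to Atf4, Ddit3 and Chac1 were taken from 12921 genes averaging 50 or more normalised counts, by the root mean square difference of 6 log2 values, each less the gene's own control mean. For Atf4 they were Otud6b, a deubiquitinase gene (0.010), Hbs1l, a ribosome rescue factor gene (0.012), and the nucleolar gene Lyar (0.013). For Ddit3 they were the proto-oncogene Myc (0.060), the fatty acid elongase gene Elovl4 (0.092) and Plcxd2 (0.11), with log2 fold changes of 2.89, 2.89 and 2.996. For Chac1 they were the clock-linked repressor gene Bhlhe41 (0.059), the processed pseudogene Gm7902 (0.063), whose reads are uncertain because such copies resemble their parent gene, and the circadian gene Ciart (0.072). All of these resemblances rest on 6 libraries that fall into a control and a PC level.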

How the data were processed

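RNA was measured in 6 NIH-3T3 libraries, 2 for each of 3 guides. Tools named in the submitters' processing notes are DESeq2, featureCounts, STAR, Trimmomatic and bcl2fastq 2.17, with the build GRCm38; no source used here gives their settings, the annotation or the use of the strand. The values that the authors deposited are a signal, normalised read counts scaled by 1 size factor per library. Multiples of a single step per library made up 100% of the values (tolerance 0.01), and these were taken back to whole reads. Every listed gene had at least 61 reads over the 6 libraries. Such values compare a gene between libraries, not one gene with another, and rest on rises and falls balancing across genes.

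IDs were matched exactly to GENCODE M21, and 16498 received a symbol. Differences on the log2(normalised count + 1) scale were tested with limma 3.58.1 (R 4.3.3), 1 model of 3 groups with an intensity trend, two-sided, with Benjamini-Hochberg adjustment over 16526 genes that reached 10 normalised counts in 2 or more libraries. Fold changes on this scale understate changes of low genes. The model had 3 residual degrees of freedom. The code was tested on simulated data. Alternatives used edgeR 4.0.16, DESeq2 1.42.0, other pseudocounts, filters and scalings, a replicate block, and each library left out. On the recovered whole reads edgeR called 11424 genes for both PC guides against control, where limma called 11222.

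The 10 genes and the lists were chosen with earlier results of these data known. The rule for other genes named Pcx, up to 4 higher and 4 lower genes of smallest p per list, every gene of lists with at most 5 measured members, and the 3 genes closest in pattern to each of Atf4, Ddit3 and Chac1. One gene that this rule names is not reported here.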

Additional observations from a re-analysis of the deposited data

Results flagged for a closer look

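Pcx was the one gene among those named for which a test showed a difference between the PC guides. Its log2 fold change of PC sg5 against PC sg2 was 1.05 ± 0.08 (SE), with a limma adjusted p of 6.60e-07, from means of 715 ± 2.04 and 345 ± 42.2 normalised counts (SD, n = 2 each). The Pcx call ended without the intensity trend, where 0 genes passed in this comparison. Groups of 2 libraries allow no outlier test.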

How the results depend on the processing

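All 10 genes passed the threshold for both PC guides, PC sg2 and PC sg5 against control under every alternative run, with the same sign; the highest limma, edgeR or DESeq2 adjusted p was 0.0106, for Cebpg with PC sg5. Estimates for both guides ranged over 3.52 to 3.83 for Atf3 and 0.31 to 0.37 for Cebpg. For PC sg5 against PC sg2, no adjusted p of the 10 passed under any alternative, although DESeq2 gave none for Atf3, and leaving out 1 library moved Atf4 over -0.00352 to 0.0248, Cebpb over -0.0713 to 0.0207 and Atf5 over -0.0990 to 0.0214, so their signs are not fixed. The number of all genes called in that comparison, 40, was 85 with DESeq2, 68 with edgeR, 65 among genes averaging 50 or more normalised counts, 65 with pseudocount 8, 0 without the intensity trend, and 10 to 218 with 1 library left out. With the replicate number as a block it was 160. Over all genes tested, deviations of same-numbered libraries correlated at -0.02 to 0.03, and the block changed no call of the 10 genes. Genes of low counts weigh as much as others in these correlations, so they cannot settle whether replicate numbers pair the libraries. The causes were not tested. Depth does not limit the 10 genes, but 2 libraries a group leave the spread poorly known.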

Other observations

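Within each library the balance of the factors differed between the groups. On the RPKM scale, the ratio of Ddit3 to Atf4 was 0.857 and 0.872 with PC sg2, 0.896 and 0.929 with PC sg5, and 0.226 and 0.223 in the controls. The ratio of Ddit3 to Cebpb, whose protein CHOP can bind, averaged 0.997 ± 0.048 in the PC libraries (SD, n = 4) and 0.180 ± 0.0072 in the controls (SD, n = 2). The ratio of Cebpb to Cebpg was 9.94 and 9.91 with PC sg2, 9.74 and 10.5 with PC sg5, and 9.56 and 9.59 in the controls. The ratio of Eif2ak4 to Atf4 averaged 0.0362 ± 0.0013 in the PC libraries and 0.115 ± 0.0007 in the controls. These values describe RNA and were not tested.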
